A study of Macaca fascicularis and Mus musculus with 492 samples.

Results

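The HOX genes of the cynomolgus monkey (Macaca fascicularis) were followed through single cells of embryos from embryonic day 6 (E06) to E17. Members were all rows of the deposited monkey table named HOX, then A, B, C or D, then a number, which gave 37 of the 28797 rows with values. HOXA had 11 of them, HOXB 10, HOXC 9 and HOXD 7. No row of the table carried the names HOXD4 or HOXD8, and those genes were not analysed here. The same names were then read in the mouse table, where 37 of 39 Hox rows had a monkey namesake. Every value is a read count scaled to library size (RPM) and comes from SC3-seq, which reads the 3′ ends of amplified cDNA from a single cell.

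The monkey cells came from whole embryos before implantation (43 cells at E06, 35 at E07, 95 at E08 and 20 at E09) and from hand-dissected fragments after implantation (E13 with 46 cells, E14 with 62, E16 with 36 and E17 with 53). Those fragments held the epiblast, amnion, hypoblast and yolk sac endoderm, so the later days lack most of the trophoblast by dissection. Embryonic stem cells (ESCs) of 2 monkey lines were also measured, with 14 CMK6 cells and 8 CMK9 cells on mouse feeder cells and 9 CMK6 cells without feeders. The mouse cells were C57BL/6 embryos at E5.5 (25 cells) and E6.5 (24 cells), the ESC line BVSC R8 in 2i/LIF (10 cells) and epiblast-like cells (EpiLCs) induced from it for 2 days (12 cells). At E6.5 only the proximal epiblast and the visceral endoderm were taken. The labels number cells and name no embryo, so a day, a class of cells on a day, or a culture was the unit of every test. The p-values rest on the spread between those units. In the limma fits that spread is pooled in part over all tested genes. With few units in a class, a limma p-value therefore rests largely on the spread of other genes.

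HOX genes encode homeodomain transcription factors that give cells of the body axis their position. They lie in clusters in which low-numbered paralogs sit at the 3′ end and high-numbered paralogs at the 5′ end. In gastrulating embryos the 3′ genes are usually switched on first and in the most anterior tissue, the 5′ genes later and further back, under the influence of WNT signals, CDX proteins and retinoic acid. HOXA9 to HOXA13 are also known from limb bud, genital tract and the allantois, an extraembryonic mesoderm.

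Depth ran from 166742 to 4491534 reads per monkey cell with a median of 1879343, and E17 was the shallowest day with a median of 912192. A member was called detected in a cell at 10 RPM or more. Cell classes were rebuilt by clustering without any HOX row and named "-like" from marker genes. They comprised 84 trophectoderm-like cells, 46 hypoblast or endoderm-like cells, 140 epiblast-like cells, 32 extraembryonic mesenchyme-like cells and 31 gastrulating-like cells. Cluster 6 (40 cells of E06 to E09, led by DPRX) and cluster 3 (17 cells of E13 and E14, led by SPP1, T and HAS2) did not meet the naming rule and keep their numbers. Titles also carry a code such as MS10 whose meaning the labels do not give. Some codes recur on several days, such as MS08 at E07, E14 and E16, and the share of cells with any HOX member differed between codes of the same day, from 12.5% (code MS61) to 68.97% (MS10) at E17 and from 11.1% (MS08) to 93.8% (MS13) at E14.

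Of the 37 members, 35 reached 10 RPM in at least 1 cell and 23 in at least 10 of the 421 monkey cells. HOXA6 and HOXD11 reached it in none, which allows a share of up to 0.713% of cells, counting error only. At least 1 member was detected in 302 cells. HOXC11 was detected in the most cells (97), followed by HOXA10 and HOXC10 (74 each), HOXC9 and HOXC13 (67 each), HOXA9 (48), HOXA13 (46), HOXA11 (45), HOXC6 (43), HOXA7 and HOXC12 (41 each), HOXC8 (39), HOXA2 (35) and HOXD1 (31). By the first day with at least 2 cells at 10 RPM, detection did not follow cluster order over time. That first day depends on the number of cells, from 20 at E09 to 95 at E08, and on the classes sampled on a day. The 8 members already in at least 2 cells at E06 were HOXA7, HOXB4, HOXB9, HOXC8, HOXC9, HOXC10, HOXC12 and HOXC13. At E07 another 11 reached 2 cells and at E08 another 4, among them HOXA2 and HOXB2. HOXA3, HOXA5, HOXB1, HOXD9 and HOXD10 first did so at E14 and HOXD3 at E17. HOXA4, HOXA6, HOXD11 and HOXD12 never did.

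**Figure D1:**
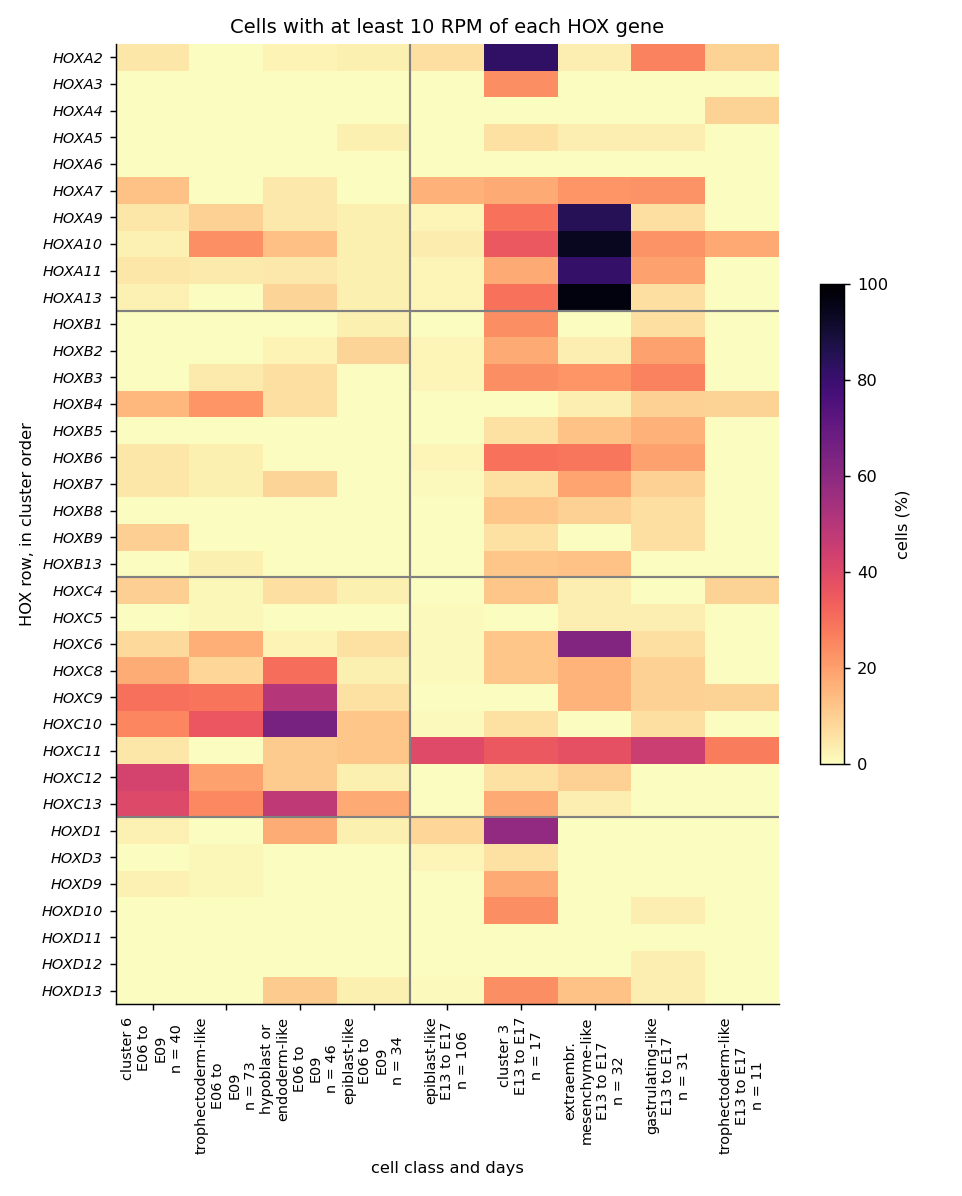
Percent of cells at 10 RPM or more (colour) for 36 of the HOX rows (vertical axis, in cluster order) in each cell class before implantation (left of the line) and after it (right). The extraembryonic mesenchyme-like column is darkest from HOXA9 (84.4%) to HOXA13 (96.9%), cluster 3 at HOXA2 (82.4%), and the hypoblast or endoderm-like column at HOXC9 (50%) and HOXC10 (65.2%).

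The classes differed in the part of the clusters in which they were detected. Counting members at 10 RPM in at least 10% of a class, cluster 3 had 7 of the 8 members with paralog numbers 1 to 3, 6 of the 13 with numbers 4 to 8 and 10 of the 16 with numbers 9 to 13. The extraembryonic mesenchyme-like class had 1, 6 and 8 in the same order, and the gastrulating-like class 4, 3 and 3. Before implantation the hypoblast or endoderm-like class had 1, 1 and 7, the trophectoderm-like class 0, 2 and 5, cluster 6 0, 4 and 5, and the epiblast-like class 0, 0 and 3. The epiblast-like class after implantation had HOXA7 and HOXC11 alone. These counts move with the threshold and with class size, since 2 of the 17 cells are enough in cluster 3. The main contrasts were as large with every cell thinned to 500000 reads and shallower cells left out: HOXA10 was at 5 or more reads in 29 of 31 mesenchyme-like and 4 of 95 late epiblast-like cells, HOXA2 in 14 of 17 cells of cluster 3, and HOXC10 in 30 of 46 hypoblast or endoderm-like cells.

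The extraembryonic mesenchyme-like cells expressed the 5′ end of the HOXA cluster together with HOXC6. In its 16 cells of E13, HOXA10 ran from 78.4 to 403 RPM with a median of 257, and in the 14 cells of E14 from 0 to 457 with a median of 147. HOXA9 at E13 ran from 25.7 to 177 RPM (median 86.7), and at E14 from 0 to 130 with 10 of 14 cells at 10 RPM or more. HOXA13, the last gene of the cluster, had 15.5, 74.8 and 227 RPM as its lowest, median and highest value at E13, and 1.56, 60.5 and 233 at E14. All 16 cells of E13 and 8 of 14 of E14 held HOXA9, HOXA10, HOXA11 and HOXA13 together. HOXA11 was somewhat lower, from 12.7 to 112 RPM (median 41.9) at E13 and from 0 to 72.1 (median 23.8) at E14. The 3′ neighbours were sparse in the same cells, with HOXA2 in 1 of 32 and HOXA3 in 0, so the class held the 5′ end of the cluster and little of the rest.

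Epiblast-like cells of the same days had almost none of these transcripts. HOXA10 did not exceed 1.12 RPM in 24 cells of E13 or 0.805 RPM in 25 cells of E14. The mean level in log2(RPM + 1) over units was 7.15 for HOXA10 in 2 mesenchyme-like days and 0.44 in 4 epiblast-like days (E13, E14, E16 and E17), a difference of 6.71 (SE 0.53, limma adjusted p = 7.0e-06). HOXA13 differed by 5.499 (SE 0.41, limma adjusted p = 4.8e-06) and HOXA9 by 5.25 (SE 0.50, limma adjusted p = 2.4e-05). The differences were 4.46 for HOXA11 (SE 0.44, limma adjusted p = 2.9e-05) and 3.76 for HOXC6 (SE 0.32, limma adjusted p = 1.0e-05). For these 5 genes no unit of one class overlapped one of the other. The same held for HOXB4, which was not called (limma adjusted p = 0.43). Non-overlap was not counted over all genes, so nothing is read from it. Of 9 members tested, 5 were higher and 0 lower in the mesenchyme-like class, where 12.2% of 11479 genes were higher and 15.8% lower. The classes were built from those other genes but not from HOX. The 5 genes passed the filter on low values only through the mesenchyme-like units, so their number is not evidence that HOX genes stand apart. Without the E13 unit HOXA11 and HOXC6 fell under that filter and 3 remained, without the E14 unit HOXC6 did, and a filter at a mean of 2 kept only HOXA10 and HOXA13. HOXA7, HOXC11, HOXB4 and HOXB5 also passed the filter and were not called.

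The pattern was the same in cells that shared a title code. At E13, HOXA10 averaged 8.25 in mesenchyme-like cells of code MS10 and 0.00 in its epiblast-like cells, and 8.17 against 0.19 in code MS61. Markers of other tissues moved with the class. Summed over the 9 hypoblast or endoderm markers in the table, the mean log2 level was 49.1 and 51.6 in the mesenchyme-like days and 7.19 to 19.4 in the epiblast-like days, with 6 and 7 against 2 to 8 of the markers at a mean of at least 1. The 6 mesenchyme markers summed to 49.3 and 58.2 against 13.5 to 23.01, and the part of either in the HOX levels was not tested. Hypoblast or endoderm-like cells before implantation had HOXA10 in 6 of 46 cells, at most 52.5 RPM.

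**Figure D2:**
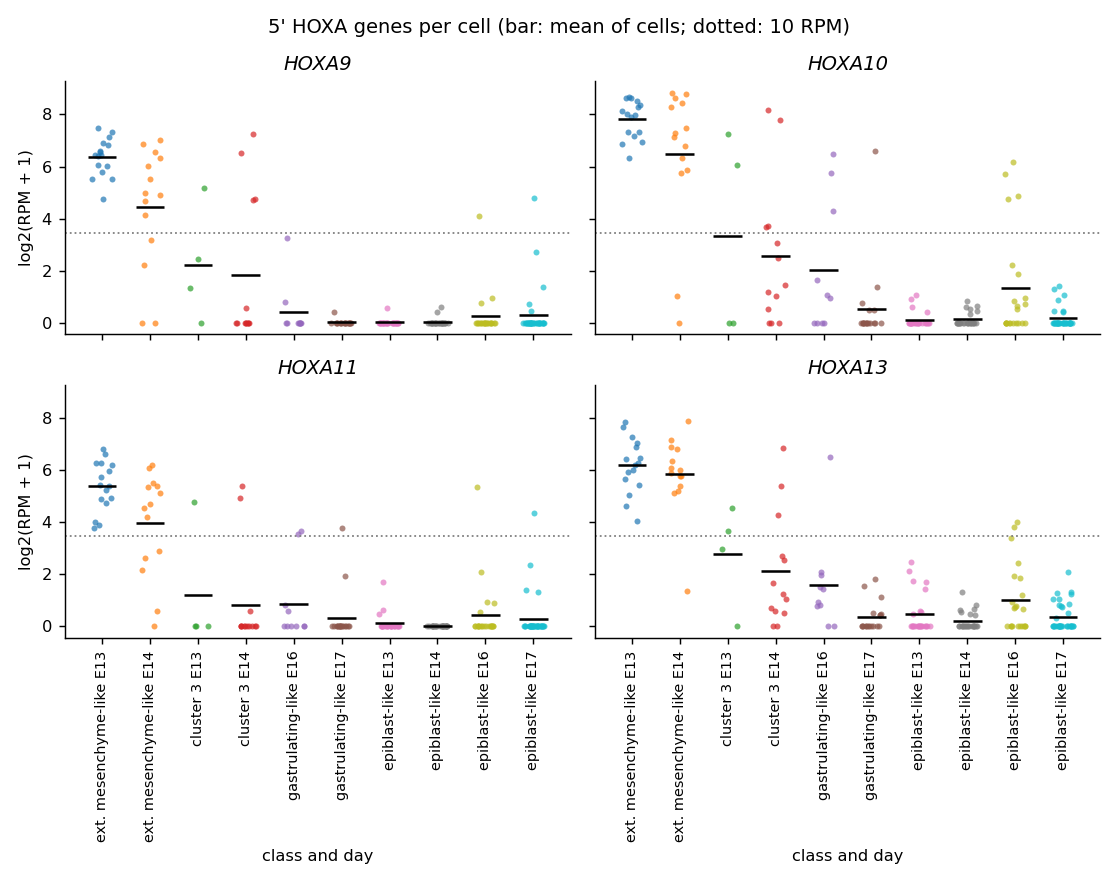
Level of HOXA9, HOXA10, HOXA11 and HOXA13 in each cell (points, log2(RPM + 1)) by class and day after implantation, with the mean over cells (bar) and the 10 RPM threshold (dotted line). Mesenchyme-like cells sit high in all 4 panels, most epiblast-like cells sit at or near 0, and a few cells of cluster 3 and of the gastrulating-like class reach the same height.

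The mesenchyme-like class (units of E13 and E14) was also set against the gastrulating-like class (units of E16 and E17), with 2 units each. The units share no day, so class and day cannot be told apart in this comparison. The same 5 genes were higher, of 14 members tested, and 0 were lower, beside 5.69% and 4.8% of 11272 genes. HOXA9, HOXA11, HOXA13 and HOXC6 were under the filter in the gastrulating-like units (0.21 to 0.98) and entered through the mesenchyme-like ones, so this count is a description. HOXA10 averaged 7.15 against 1.28, a difference of 5.87 (SE 0.71, limma adjusted p = 4.5e-07), and HOXC6 3.89 against 0.59 (difference 3.29, SE 0.67, limma adjusted p = 0.00075). edgeR on recovered reads called HOXA9 and HOXA10 alone, the fit with equal numbers of cells also HOXA13, and the fit without a filter HOXA10 alone. The units left out 3 gastrulating-like cells of E13 and E14, and those cells had HOXA10 at 22.8, 305 and 100 RPM. HOXB2 was 1.097 in the mesenchyme-like and 2.27 in the gastrulating-like class, and the difference did not pass (limma adjusted p = 0.30).

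HOXC6, a central gene of the HOXC cluster, reached 31.2 RPM as its median in the mesenchyme-like cells of E13, where 10 of 16 were at 10 RPM or more, and 9 of 14 at E14. Of the other genes of the HOXC cluster, HOXC11 was in 12 of 32 cells, and HOXC8 and HOXC9 were in 5 each. Of the HOXB genes, HOXB6 was in 9 cells (highest 63.9 RPM), HOXB3 in 7, HOXB7 in 6 and HOXB5 in 4. HOXD13 was the only HOXD member in at least 10% of the class, with 4 of 32 cells.

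Across 24 units of class and day or culture, the genes whose level followed HOXA10 most closely were LOC102133380 (Pearson r = 0.97), WNT2 (0.96), HOXA9 (0.96), HOXA11 (0.95) and HOXA13 (0.94). For HOXA9 they were LOC102140381 (0.98), FGF7 and HOXA11 (0.97 each), TBX4 and HOXA10 (0.96 each). For HOXA13 they were IFI16, LOC102115782 and LOC101866122, with HAND2 and SHOX2, at 0.95 to 0.96. LOC101866122 is BMP5 by its RefSeq identifier. TBX4 and HAND2 encode transcription factors known from limb and lateral mesoderm, and WNT2, FGF7 and BMP5 are secreted signals. The units share embryos and libraries, and 2 mesenchyme-like units carry the high end of each relation, so these are descriptions over 13180 genes with no test.

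Cluster 3 had its most frequent members at the 3′ end of the clusters but was not limited to it. The highest share was 82.4% of cells for paralog numbers 1 to 3, 29.4% for 4 to 8 and 35.3% for 9 to 13. Of the 16 members with numbers 9 to 13, 10 were in at least 10% of its cells, HOXA10 and HOXA13 among them. HOXA2, a gene of the hindbrain and branchial arches in later embryos, was detected in 14 of 17 cells (82.4%, exact 95% binomial interval 56.6 to 96.2%). It ran from 7.34 to 42.4 RPM (median 37.2) in the 4 cells of E13 and from 0 to 200 at E14, where 11 of 13 cells were at 10 RPM or more. HOXD1 was in 10 of 17 cells, at most 262 RPM. HOXA3 and HOXB1 were in 4 each.

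Setting cluster 3 against other classes was decided after these values were seen, and its E13 unit has only 4 cells. HOXA2 averaged 4.75 and 4.84 in cluster 3 and 0.47 to 0.74 in the 4 epiblast-like days (difference 4.25, SE 0.40, limma adjusted p = 0.0017). HOXD1 (2.78, limma adjusted p = 0.049) and HOXA10 (2.50, limma adjusted p = 0.039) passed narrowly. Of 8 members tested, 4 were higher and 0 lower, beside 0.444% and 0.27% of 11492 genes. In the epiblast-like units HOXA2, HOXD1 and HOXA10 averaged 0.44 to 0.59, under the filter, and entered through cluster 3, so nothing is read from that count. The units did not overlap for any of the 4, a property not counted over all genes. These calls depended on the fit: edgeR on recovered reads and the log2 of the mean RPM called 0 of the members, edgeR having 5 at an unadjusted p under 0.05, a filter at a mean of 2 called 0, the fit without a filter called HOXD10 alone, and quantile normalization and a pseudocount of 0.1 called 2, HOXA2 among them. Leaving out the epiblast-like unit of E13, E14 or E17 also took HOXD1 and HOXA10 below the threshold and kept HOXA2, and without its own E13 or E14 unit cluster 3 lost HOXA10 or HOXD1. With the day as a block HOXA13 was called too (2.13, limma adjusted p = 0.0090, against 0.051 without the block), beside 2.4% of genes higher and 1.36% lower in that fit.

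Against the mesenchyme-like class the HOXA cluster split along its length. HOXA2 (4.11) and HOXD1 (3.31) were higher in cluster 3, and HOXA10 (-4.21), HOXA11 (-3.65), HOXA13 (-3.55), HOXA9 (-3.37) and HOXC6 (-3.29) were lower, with limma adjusted p from 0.00048 to 0.0083. That was 3 higher and 5 lower of 14 members tested, beside 8.43% and 6.02% of 11583 genes. HOXA2 (0.68) and HOXD1 (0.06) were under the filter in the mesenchyme-like units and HOXC6 (0.60) in cluster 3, so the count was shaped by the filter. edgeR called HOXA13, HOXA2 and HOXD1 alone, and the fit without a filter called 0, with 5 higher and 5 lower at an unadjusted p under 0.05. Without the mesenchyme-like unit of E13, HOXA9 and HOXA11 were lost, and without the E14 unit of cluster 3 HOXD1 fell under the filter.

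Several genes known to act upstream of HOX were frequent in the same cells. They took part in the clustering, so their values are a description and no test of them is given. CDX1, a caudal-type activator of HOX genes, was at 10 RPM in 17 of 17 cells of cluster 3 with a median of 127 RPM. CDX2 was in 12 and CDX4 in 8. EVX1, which neighbours HOXA13 and marks the primitive streak, was in 16, and T (brachyury) in 13 with a median of 204 RPM. Other genes of the same list were sparser in cluster 3: WNT5A was in 8 cells, GDF11, WNT3 and FGF17 in 4 each, WNT3A in 1, and WNT8A, FGF8 and EVX2 in 0. In the mesenchyme-like class CDX1 and T were in 0 of 32 cells, while GDF11 was in 15, EVX1 in 8 and CDX2 in 7. In late epiblast-like cells CDX1 was in 4 of 106, EVX1 in 11 and T in 18. Gastrulating-like cells had T in 15 of 31, EVX1 in 11 and CDX1 in 1. CDX1 was also frequent where the 3′ genes were sparse: 66 of 73 early trophectoderm-like cells had CDX1, and no HOX member of paralog number 1 to 3 was in more than 4.11% of them. Early epiblast-like cells had CDX1 in 29 of 34 and EVX1 in 26, and no such member in more than 8.82%.

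**Figure D3:**
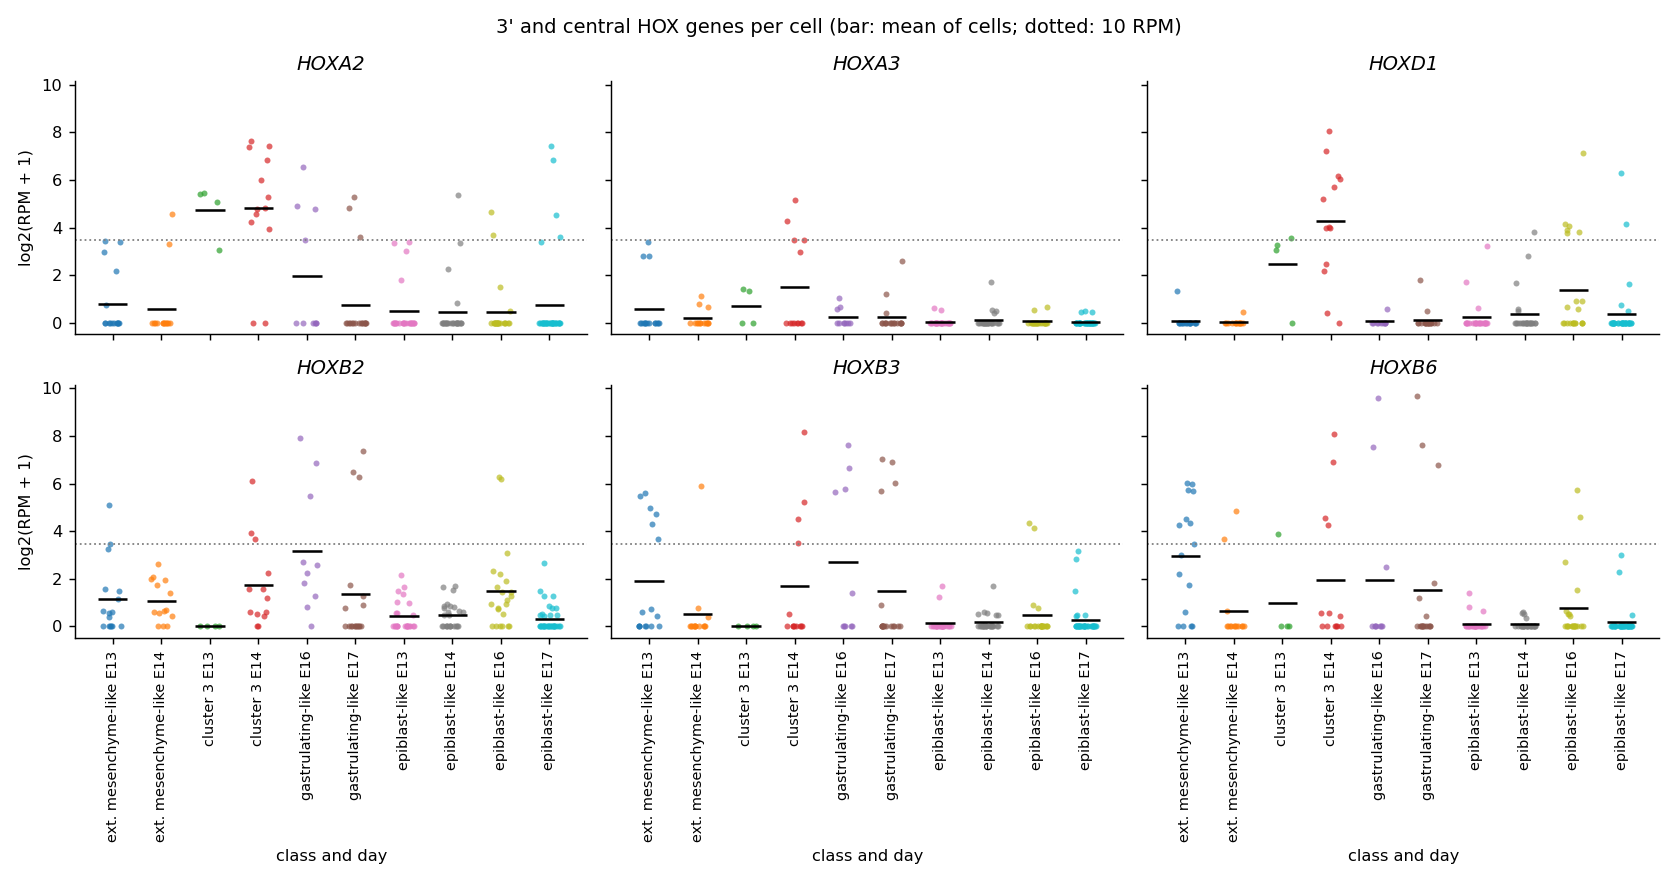
Level of HOXA2, HOXA3, HOXD1, HOXB2, HOXB3 and HOXB6 per cell (points, log2(RPM + 1)) by class and day, with the mean over cells (bar) and the 10 RPM threshold (dotted line). HOXA2 is high in most cells of cluster 3, while the high HOXB values lie in single cells of cluster 3 and of the gastrulating-like class.

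Many members at once were seen in only a few cells, and no cell held every member of a cluster. At least 10 members were detected in 13 monkey cells: 4 of 17 in cluster 3, 5 of 32 mesenchyme-like, 3 of 31 gastrulating-like and 1 of 40 in cluster 6. The 2 richest were E14 cells of cluster 3, both of code MS13. One held 24 members (9 HOXA, 5 HOXB, 5 HOXC and 5 HOXD) that summed to 2674 RPM, and the other 22 members at 1329 RPM. In the first the 5′ genes HOXA9 to HOXA13 stood beside HOXA2, HOXB1 and HOXD1, so a single library held members of all 4 clusters. The 5 mesenchyme-like cells had 10 to 12 members, HOXA9, HOXA10, HOXA11 and HOXA13 in each. Whether a library held more than 1 cell was not tested. The 12 members seen in only 1 to 9 cells gave 57 detections, of which 21 lay in the 13 cells that held 10 or more members. HOXB1 (7 cells, highest 171 RPM) and HOXD9 (5 cells, highest 103 RPM) were the strongest of them, and HOXA4 and HOXD12 were in 1 cell each. HOXD10, with 5 cells, had 3 in that small set.

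In gastrulating-like cells the HOXB genes were high in a few cells and under 10 RPM in most. An E16 cell of code MS09 had HOXB6 at 769 RPM with 8 HOXB and 5 HOXA members, and an E17 cell of code MS10 had it at 814 RPM with 6 HOXB members. HOXB2 reached 237 RPM and HOXB3 195 RPM at E16, yet their medians were 4.29 and 0.817 RPM over those 10 cells. HOXB6 was in 6 of 31 cells, HOXB2 in 6, and HOXB3 and HOXA2 in 8 each. The class averages were correspondingly uneven. HOXB2 was 3.17 and 1.38 at E16 and E17 against 0.33 to 1.49 in epiblast-like units, and HOXB5 2.67 and 1.42 against 0.78 to 1.28. Of 5 members tested none was called by limma, beside 3.08% of 11458 genes higher and 3.92% lower. HOXB2 (difference 1.59, limma adjusted p = 0.084) and HOXB5 (1.01, limma adjusted p = 0.17) had an unadjusted p under 0.05. edgeR called 1 (HOXB5), and the log2 of the mean RPM called HOXB2, HOXB4 and HOXB5. HOXB2 was called without the gastrulating-like unit of E17 or the epiblast-like unit of E16, and HOXB3 without the epiblast-like unit of E13 or E14. With the day as a block, HOXB2 was called (difference 1.36, SE 0.39, limma adjusted p = 0.023), beside 4.07% of genes higher and 7.86% lower in that fit, which has 1 residual degree of freedom before the spread is pooled over genes.

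Before implantation genes of the 5′ part of the HOXC cluster led, except HOXC11. At 10 RPM HOXC10 was in 70 of 193 early cells, HOXC13 in 62, HOXC9 in 58 and HOXC12 in 37. HOXC11, which lies between HOXC10 and HOXC12, was in 11. Day means of HOXC10 in log2(RPM + 1) were 1.46, 3.10, 2.45 and 2.54 from E06 to E09 and 0.23, 0.15, 0.31 and 0.00 from E13 to E17. HOXC9 had 2.03, 2.63, 2.12 and 2.06, then 0.54, 0.38, 0.38 and 0.03. HOXC13 had 1.79, 2.58, 1.80 and 1.92, then 0.08, 0.30, 0.07 and 0.01. No early day overlapped a late one for these 3 genes, a property not counted over all genes. HOXC10, HOXC9 and HOXC13 were lower on late days by 2.21 (SE 0.30, limma adjusted p = 0.00012), 1.88 (SE 0.22, limma adjusted p = 3.8e-05) and 1.91 (SE 0.22, limma adjusted p = 3.8e-05). HOXC12 had 1.87, 1.68, 0.79 and 0.76, then 0.15, 0.30, 0.01 and 0.00. The row named HOXC10 has a gene identifier absent from the RefSeq table used here, in which the symbol belongs to another identifier whose own row was at 10 RPM in 0 embryo cells, so the identity of that row is uncertain.

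Over the days as wholes, 7 of the 37 members passed the filter. Of these, 2 were higher and 3 lower on late days, beside 18.9% higher and 31.2% lower of 11556 genes, and HOXA10 (difference 1.305, limma adjusted p = 0.057) and HOXB4 (-0.15, limma adjusted p = 0.56) were not called. HOXC9, HOXC10 and HOXC13 were under the filter on the late days and entered through the early ones. Leaving out 1 day exchanged members, partly through the filter. Without E06, E07, E08 or E09 HOXC13 fell under it and was not tested. HOXC13 was called in all 12 alternatives that tested it. HOXA13, under the filter in the main fit, was called when 1 of the early days or E17 was left out. HOXA10 was called without E08 or E17. Over the genes tested the median difference was -0.20, which quantile normalization moved to -0.02. The share of called genes that were higher moved from 37.8% to 49.7% with it, while the 5 HOX calls stood in both. Cell classes differ between the periods (34 of 193 early and 106 of 197 late cells were epiblast-like), and within epiblast-like cells HOXC9, HOXC10 and HOXC13 were under the filter. Without a filter 12 members were called, with HOXA2, HOXA3, HOXB3, HOXB5, HOXB6, HOXB8 and HOXC12 added. The share of all genes called in that fit is not given here, so nothing is read from the count. Code MS08 was used on both sides: HOXC9 averaged 2.07 in its 6 cells of E07, 0.07 in 9 of E14 and 0.04 in 20 of E16.

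The 30 members under the filter were compared by the exact permutation test over 4 against 4 days, two-sided, whose smallest possible p is 0.029. With higher late values 7 reached it, among them HOXA2, HOXA3, HOXB2, HOXB3, HOXB5 and HOXB6, and HOXC12 did with lower ones (adjusted p = 0.16 for each, over all 14336 genes under the filter). Of those genes 12.3% reached it higher and 5.48% lower. HOXA2 averaged 1.07 on late and 0.49 on early days. The higher members named here have paralog numbers from 2 to 6 and the lower one is a 5′ HOXC gene. In the same range HOXA4, HOXA5, HOXA6, HOXC4, HOXC5, HOXC6 and HOXD3 did not reach that p. HOXC4 (-0.24) and HOXC6 (-0.02) were lower on late days, so no order along the clusters is read from these members. At the smallest possible p the adjusted p was 0.16, so no gene under the filter could pass the correction.

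**Figure D4:**
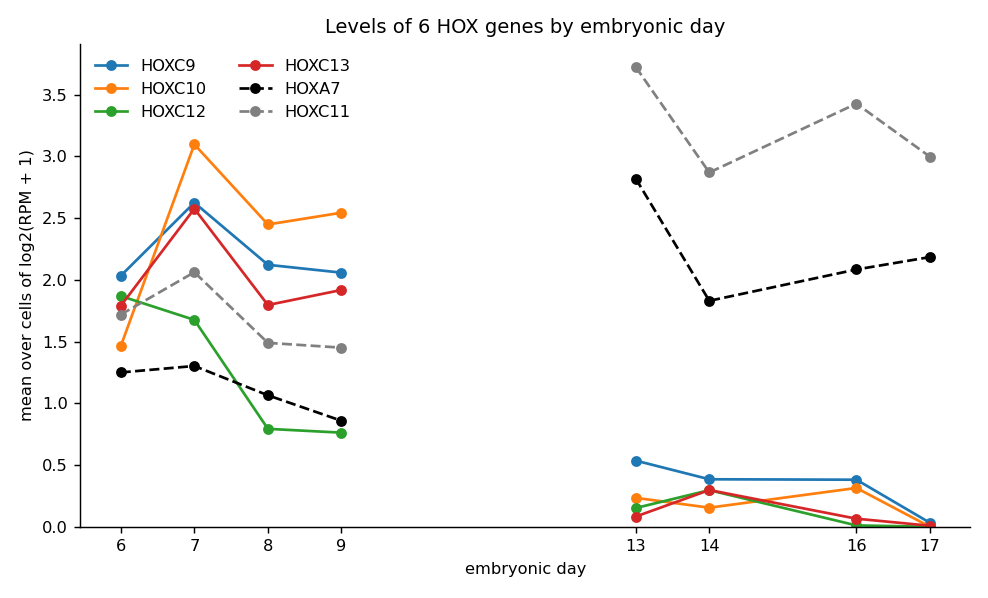
Mean over all cells of a day of log2(RPM + 1) for HOXC9, HOXC10, HOXC12 and HOXC13 (solid) and HOXA7 and HOXC11 (dashed) against embryonic day, each point 1 day and the gap standing for implantation. The 4 solid lines lie between 0.76 and 3.10 up to E09 and at or under 0.54 from E13.

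The early HOXC transcripts were densest in the hypoblast or endoderm-like class. HOXC10 was in 30 of its 46 cells (65.2%, 49.8 to 78.6%), HOXC9 in 23, HOXC13 in 22 and HOXC8 in 14. In early epiblast-like cells the counts were 4, 2 and 6 of 34 for HOXC10, HOXC9 and HOXC13. HOXC9 averaged 3.33, 2.902 and 3.52 in the hypoblast or endoderm-like units of E07, E08 and E09, and 0.47, 1.02 and 0.85 in epiblast-like units (difference 2.47, SE 0.41, limma adjusted p = 0.0011). HOXC8 differed by 2.42 (limma adjusted p = 0.0034), HOXC10 by 2.14 (limma adjusted p = 0.0040) and HOXC13 by 1.48 (limma adjusted p = 0.017). Of 6 members tested, in a comparison chosen after the values were seen, 4 were higher and 0 lower, beside 12.1% and 13% of 11304 genes. HOXC8 (0.21), HOXC9 (0.78) and HOXC13 (0.95) were under the filter in the epiblast-like units and entered through the hypoblast or endoderm-like ones, so nothing is read from the count. The units of the classes did not overlap for any of the 4, a property not counted over all genes. HOXC13 was lost with edgeR, with equal numbers of cells, without a filter and without either E08 unit, with adjusted p from 0.053 to 0.15, and a filter at a mean of 2 kept HOXC9 and HOXC10.

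Early trophectoderm-like cells shared part of this pattern. HOXC10 was in 26 of 73, HOXC9 in 21, HOXC13 in 18, HOXA10 in 17, HOXB4 in 16, HOXC12 in 14 and HOXC6 in 12. HOXB4 averaged 1.41, 2.12 and 2.54 from E07 to E09 against 0.96, 0.74 and 0.10 in epiblast-like units (difference 1.43, limma adjusted p = 0.028). HOXC10 (1.93, limma adjusted p = 0.014) and HOXC9 (1.47, limma adjusted p = 0.020) were higher too, so that 3 of 7 members tested were higher and 0 lower, beside 10.6% and 13.5% of 11187 genes. HOXB4 (0.60) and HOXC9 (0.78) were under the filter in the epiblast-like units, which shaped that count too. None of the 3 was called without a filter, with a filter at a mean of 2 or in units of at least 10 cells, equal numbers of cells left HOXC10, and leaving out the trophectoderm-like unit of E09 left HOXC9 alone. Cluster 6 had HOXC12 in 17 of 40 cells, HOXC13 in 16, HOXC9 in 12 and HOXC10 in 10. The full set of HOXC9, HOXC10, HOXC12 and HOXC13 was rare within a cell: it was in 1 of 46 hypoblast or endoderm-like cells, 2 of 73 trophectoderm-like cells and 3 of 40 cells of cluster 6, while 28, 24 and 15 cells had at least 2 of the 4. HOXC9 and HOXC10 were together in 16 of the 46 hypoblast or endoderm-like cells.

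HOXA7 and HOXC11 were low but had reads in nearly every cell. HOXC11 had a read in 404 of 421 cells and HOXA7 in 380. Day means of HOXC11 were 1.72, 2.06, 1.49 and 1.45 before implantation and 3.73, 2.87, 3.43 and 2.998 after it (difference 1.57, SE 0.28, limma adjusted p = 0.00065). HOXA7 had 1.25, 1.303, 1.07 and 0.86, then 2.82, 1.83, 2.08 and 2.19 (difference 1.11, SE 0.25, limma adjusted p = 0.0036; adjusted p = 0.055 with equal numbers of cells). The early and late days did not overlap for either gene, a property not counted over all genes. Within code MS08, however, HOXC11 averaged 3.05 at E07 (6 cells), 2.46 at E14 and 3.33 at E16, and at E17 the codes MS10, MS11 and MS61 had 3.61, 2.46 and 2.18. The part of the code in the rise was not tested.

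Within the epiblast-like class neither gene passed between early and late days. HOXC11 averaged 3.14 late and 1.96 early (difference 1.18, SE 0.53, limma adjusted p = 0.096) and HOXA7 2.03 and 1.23 (difference 0.79, SE 0.48, limma adjusted p = 0.22). Of these 2 members tested 0 were called by limma, 1 at an unadjusted p under 0.05, and 0 by edgeR, beside 13.1% of 11501 genes higher and 22.5% lower. Without the E07 unit, which has 5 cells, both were called. Without a filter HOXC9, HOXC10 and HOXC13 were called in their place. No HOX gene of paralog number 1 to 3 was in 10% of late epiblast-like cells, the highest share being 8.49%.

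Monkey ESCs had HOXC11 and HOXA7 at low levels and few other HOX transcripts. HOXC11 had medians of 9.61, 6.10 and 7.87 RPM in CMK6 without feeders, CMK6 on feeders and CMK9 on feeders, and HOXA7 2.37, 2.00 and 3.12. HOXC11 averaged 3.20 over the 3 cultures and 3.14 over the 4 late epiblast-like days (difference 0.06, SE 0.40, limma adjusted p = 0.94) and HOXA7 1.87 and 2.03 (difference -0.16, SE 0.39, limma adjusted p = 0.83). Of these 2 members tested 0 were called by limma or edgeR and 0 had an unadjusted p under 0.05, beside 6.23% of 11678 genes higher and 1.26% lower, with a median over all genes of 0.28, or -0.02 after quantile normalization. The SE leaves room for a difference of either sign. At 10 RPM the 31 ESCs had HOXC11 in 9 cells, HOXD1 in 2 and HOXC13 in 1, and no other member.

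Other genes of the HOX pathway were tested between late and early days, with lists chosen with results of these data known. Of 12 HOX regulators with a row, 6 were tested, with 3 higher and 2 lower: T rose by 2.00 (limma adjusted p = 0.0010), GDF11, a TGF-beta family ligand of the trunk-to-tail transition, by 1.04, and WNT3 by 0.88, while CDX1 fell by 4.01 (limma adjusted p = 2.1e-05) and CDX2 by 2.78. Both CDX genes were frequent in early trophectoderm-like cells (66 and 62 of 73), a class mostly removed by dissection later, and its part in the fall was not tested. The list's median was 0.81, beside -0.20 for all genes, of which 18.9% were higher and 31.2% lower. Only HOX rows were kept out of the clustering, so calls on listed genes within a class are a description and no independent test. Within the epiblast-like class 0 of 5 regulators were higher and 2 lower, EVX1 by -3.00 and CDX1 by -4.096, beside 13.1% and 22.5% of genes. Of the HOX cofactors 4 of 5 tested were higher between the days and 0 lower, led by PBX3 (5.15, limma adjusted p = 2.8e-07) with MEIS1 (1.37) and PBX2 (1.29) among the others. Within the epiblast-like class 2 of 5 were higher, PBX3 (4.19) among them, and MEIS1 (0.29) and PBX2 (0.04) were not called.

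Among 7 tested genes of retinoic acid signalling 4 were higher and 0 lower, led by CRABP2, a retinoic acid binding protein (6.55, limma adjusted p = 3.9e-07), and RARG, a receptor (2.85), with a median of 0.67. Polycomb and trithorax genes, which hold HOX clusters silent or active, were split, with 3 of 13 higher (CBX2 2.37, EZH2 0.66, RNF2 0.52) and 6 lower (SUZ12 -2.18, KDM6B -1.66 and WDR5 -1.55 the most), and a median of -0.23. Of all genes 18.9% were higher and 31.2% lower, with a median of -0.20. Within the epiblast-like class, again as a description, 1 of 13 was higher (CBX2, 1.82) and 4 lower, and of 6 retinoic acid genes 2 were higher (CRABP2 and RARG) and 1 lower (STRA6). Of 3 genes beside the clusters, ATP5G2 alone was called (0.58). Of the anterior homeobox genes, HESX1 was higher by 2.50 (limma adjusted p = 1.5e-05), and OTX2 (-0.10) and GBX2 (-0.90) were not called.

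In mouse, 17 Hox rows reached 10 RPM in any of the 71 cells, and 10 of them in a single cell. Hoxb1 led, in 7 of the 10 cells of a T-led cluster of E6.5 (cluster 4; 70%, 34.8 to 93.3%), at 23.1 to 81.4 RPM. Outside that cluster it was in 1 visceral endoderm-like cell of E5.5 at 11.8 RPM. Hoxb2 was in 2 cells of cluster 4 (13.5 and 14.7 RPM). T itself was at 10 RPM in 9 of the 10. No E5.5 epiblast-like cell had Hoxb1 at 10 RPM, which allows a share of up to 18.8% of 16 cells. On GRCm38, Hoxb2 lies on chromosome 11 from 96350525 to 96354012 and Hoxb1 from 96365752 to 96368256, both on the plus strand. The values are sums over a whole gene and do not tell exon from intron.

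Hoxa10 appeared in mouse visceral endoderm-like cells instead. Hoxa10 (chromosome 6, 52231197 to 52240854, minus strand) was in 4 of 9 visceral endoderm-like cells of E5.5 at 11.7, 21.6, 28.7 and 69.95 RPM and in 1 of 5 at E6.5 at 122 RPM. It was in no cell of the other mouse groups. In the 2i/LIF ESCs the detections were single cells of Hoxc4 (13.8 RPM), Hoxc11 (11.3) and Hoxc12 (15.3) and 2 cells of Hoxc13 (12.6 and 15.3), and in EpiLCs 1 cell of Hoxc5 (24.8). Side by side, the primitive-streak-marker cluster was led by Hoxb1 in mouse, while HOXA2 was in more cells of monkey cluster 3 than HOXB1 (14 and 4 of 17). The stages, dissections and tables differ, and no test between species was made.

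**Figure D5:**
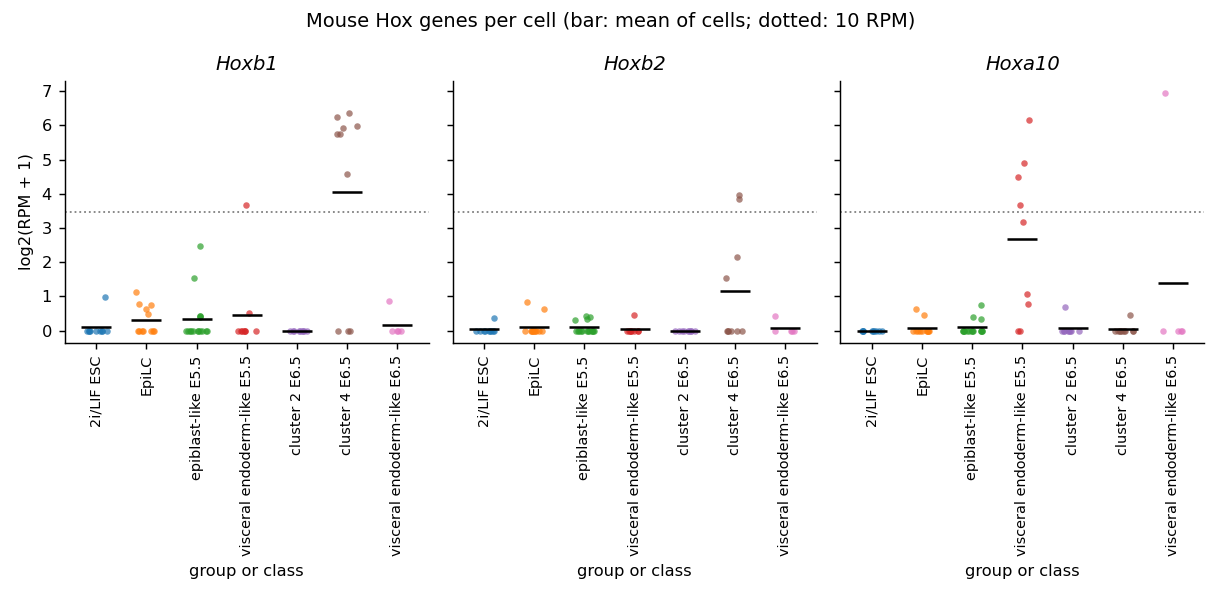
Level of Hoxb1, Hoxb2 and Hoxa10 in each mouse cell (points, log2(RPM + 1)) by group and class, with the mean over cells (bar) and the 10 RPM threshold (dotted line). Hoxb1 is high in 7 of 10 cells of cluster 4 at E6.5, and Hoxa10 in 5 of 14 visceral endoderm-like cells.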

How the data were processed

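Single-cell SC3-seq libraries of monkey and mouse cells were read from 1 deposited table per species. The values are RPM per gene and cell as the authors deposited them. cutadapt 1.3, TopHat 1.4.1 and Cufflinks 2.2.0 are named with the build mm10 per the submitters' processing notes, and the monkey build is macFas5 per the file headers. The sources used here do not say how reads of overlapping or antisense genes were handled. Low values are whole multiples of 1 read (at least 99.6% within 0.1 of a whole read in every cell), so reads were recovered for an edgeR 4.0.16 alternative. For mouse, 37 columns that match no sample were not used. No 2 monkey cells correlated above 0.948.

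Embryo cells were clustered (scanpy 1.11.5, Leiden resolution 1.0, 2000 variable genes) without HOX rows. A cluster was named where over 50% and at least 3 of a class's detected markers stood out. Only classes with at least 3 detected markers competed, a limit set after the clusters were seen. Without it the gastrulating-like cluster (31 cells), epiblast-like clusters of 57 and 49 cells and a mesenchyme-like cluster of 16 would have kept numbers. No doublet caller was run. Mean log2(RPM + 1) per unit of at least 5 cells (3 for cluster 3) was tested with limma 3.58.1 in R 4.3.3, two-sided, over genes with a mean of at least 1, with Benjamini-Hochberg adjustment and a threshold of 0.05. A fold on this scale understates the change of low genes. Members under that filter had an exact permutation test over days. Intervals are exact Clopper-Pearson, 95%, and limits for a share of 0 use 3 counts; both cover counting error only. The fit was tested on simulated data.

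Members, lists and tests were chosen with earlier results of these data known. Members detected in at least 10 cells, up to the 15 most frequent, were to be described in full, and for the 3 with the highest unit mean the 5 most similar genes were named. Comparisons of cluster 3 and of the early classes were added after the values were seen. By gene ID 35 of 37 monkey rows matched RefSeq (not HOXA5 and HOXC10). Mouse positions are from GENCODE on GRCm38. Some genes that enter the counts are not reported here by name. The labels give the day, which pairs class units of the same day: their deviations from the class means correlated at 0.0989 to 0.338 over genes in 6 comparisons, each sharing 2 or 3 days. Alternatives were other pseudocounts, filters, scalings, resolution, equal cell numbers a block on the day and leaving out each unit.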

Additional observations from a re-analysis of the deposited data

Results flagged for a closer look

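In 8 of 45 sets of 4 day values, 1 day stood apart from the other 3 by more than Dixon's 95% limit. Chance passes it in about 1 set in 20 of evenly spread values, a rate that does not hold for sparse members: HOXC10 and HOXC12 were at 0 on the other 3 days of their sets, so any read puts them past it. Epiblast-like cells of E16 gave 5 of them: HOXA10 averaged 1.33 there (next day 0.17), HOXD1 1.36 (next 0.38), HOXC10 0.24 (next 0.00), HOXC13 0.0869 (next 0.0127) and HOXC12 0.0183 (next 0.00), all in log2(RPM + 1). HOXA2 in epiblast-like cells was highest at E17, at 0.74 (next 0.48). Over all cells of the early days, HOXC9 (2.63, next 2.12) and HOXC13 (2.58, next 1.92) were highest at E07.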

How the results depend on the processing

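No call on a single HOX gene reversed in any alternative that tested the gene. Over the members called as reported, 411 values kept their side of the threshold and 71 lost it. Alternatives in which such a member fell under the filter are in neither count. The number of members called moved as follows. For these fits, and those with 1 unit left out, the share of all genes called is not given here. The counts therefore show only how the calls depend on the fit. Between late and early days it was 12 without a filter and 1 with a filter at a mean of 2 (5 as reported). For mesenchyme-like against epiblast-like cells it was 10 and 2 in the same order (5 as reported). For mesenchyme-like against gastrulating-like cells it was 1 without a filter, 2 with edgeR and 3 with equal numbers of cells (5 as reported). For gastrulating-like against epiblast-like cells (0 as reported) it was 1 with a pseudocount of 10, 1 without a filter, 3 for the log2 of the mean RPM and 1 with edgeR. For late against early epiblast-like cells it was 3 without a filter (0 as reported). For cluster 3 against epiblast-like cells (4 as reported) it was 2 with a pseudocount of 0.1 or quantile normalization, 1 without a filter and 0 with a filter at a mean of 2, the log2 of the mean RPM or edgeR. For cluster 3 against mesenchyme-like cells (8 as reported) it was 0 without a filter and 3 with edgeR. For hypoblast or endoderm-like cells it was 2 with a filter at a mean of 2 (4 as reported). For trophectoderm-like cells (3 as reported) it was 0 without a filter, with a filter at a mean of 2 or in units of at least 10 cells, and 1 with equal numbers of cells. A filter changes which genes are tested; other causes were not tested.

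Leaving out 1 unit gave 5 to 7 members for late against early days, 3 to 5 and 5 to 6 for the mesenchyme-like class against epiblast-like and gastrulating-like cells, 0 to 1 for gastrulating-like against epiblast-like cells, 0 to 2 for late against early epiblast-like cells, 0 to 0 for ESCs, 2 to 4 and 6 to 8 for cluster 3 against epiblast-like and mesenchyme-like cells, 3 to 4 for hypoblast or endoderm-like and 1 to 3 for trophectoderm-like cells.

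The number of members in at least 10% of a class was 6 in cluster 3, 3 in the mesenchyme-like class, 1 in the gastrulating-like class and 0 in cluster 6 and in the epiblast-like, hypoblast or endoderm-like and trophectoderm-like classes at 100 RPM. At 1 RPM it was 18 in cluster 6, 10 in epiblast-like, 17 in gastrulating-like, 20 in hypoblast or endoderm-like and 14 in trophectoderm-like cells. For mouse the count was of members in at least 1 cell of a group, not in 10% of a class. It was 7 in 2i/LIF ESCs, 10 at E5.5, 20 at E6.5 and 3 in EpiLCs at 1 RPM, and 0, 0, 2 and 0 at 100 RPM. With the day of the labels as a replicate block, chosen after the data were seen, 1 member was called for gastrulating-like against epiblast-like cells (0 as reported), and HOXA13 was added for cluster 3 against epiblast-like cells, which gave 5 (4 as reported); the other 4 comparisons whose classes share days kept every call. No block was possible where the units share no day (late against early, ESCs, mesenchyme-like against gastrulating-like). Comparisons with cluster 3 were not run with 5 cells per unit, since its E13 unit has 4. Units hold few cells from embryos whose number no label gives, and at E17, the shallowest day, sparse members are the least certain.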
